A study of Mus musculus with 10 samples.

Results

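The genes studied here encode the amyloid precursor protein (App) and its relatives Aplp1 and Aplp2, presenilin 2 (Psen2), beta-synuclein (Sncb), gamma-synuclein (Sncg) and the prion protein (Prnp). They were followed in mouse primary cortical neurons, with and without the proteasome inhibitor lactacystin. Members were all probe sets that the platform annotation assigns to these 7 symbols alone, of 8251 genes named on the arrays. There were 7 among the 9977 probe sets shared by the array designs U74A and U74Av2, 1 per gene, and 2 more on U74Av2 alone (Aplp2 162224_r_at and Sncg 161859_f_at). Suffixes such as _s, _f and _r mark probe sets that may match several transcripts or were chosen under relaxed rules, which touches Aplp2 and Psen2 on both designs and both U74Av2-only sets.

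Neurons came from cortices of Swiss albino mouse fetuses at gestation day 15 to 16. On day 5 in culture they received 1 µM lactacystin, in medium without serum, for 24 h or 48 h (3 arrays each) or were controls of the same times (2 arrays each). All groups share this strain and cell preparation, and the stated solvent of the lactacystin stock is DMSO, but the labels do not say whether controls received it. Nor do they tell if the replicates came from separate cultures; if they did not, the spread behind each p-value is technical. The study addresses the transcriptome during neuronal death under lactacystin.

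App, Aplp1 and Aplp2 are membrane proteins that are cut in turn by secretases. Presenilins are the catalytic subunits of gamma-secretase, the enzyme whose cut of App releases amyloid-beta. Synucleins are small proteins of the presynaptic terminal: alpha-synuclein aggregates in Parkinson disease, and beta-synuclein is its close relative that does not readily aggregate. The prion protein is a glycolipid-anchored surface protein of neurons whose misfolded form causes prion disease. The proteasome degrades proteins tagged with ubiquitin, including misfolded ones returned from the endoplasmic reticulum, and lactacystin inactivates it by binding its catalytic subunits.

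The 250 bases before the RefSeq start site are shown for the 3 genes that passed a test (Prnp, Sncb and Aplp2) and for App, the gene that names the family. They are from RefSeq on build GRCm38.p6, 5′ to 3′ on the strand of the gene. Capitals mark matches on either strand to 8 motifs. These were the heat shock element (GAANNTTC), the antioxidant response element core (TGACNNNGC), the cAMP response element (TGACGTCA), the ATF4 composite element (TGATGNAA), the AP-1 site (its letters are TGACTCA), the GC box (whose letters are GGGCGG), the E-box (whose letters are CACGTG) and the CCAAT box, named by its letters. No matches overlapped in these 4 windows.
Prnp, chr2:131909678-131909927, plus strand: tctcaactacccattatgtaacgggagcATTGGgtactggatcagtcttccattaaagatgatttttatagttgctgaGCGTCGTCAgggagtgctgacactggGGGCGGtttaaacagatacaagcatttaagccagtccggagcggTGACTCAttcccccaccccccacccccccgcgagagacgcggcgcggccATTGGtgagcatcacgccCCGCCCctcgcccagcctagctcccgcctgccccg
Sncb, chr13:54766596-54766845, minus strand: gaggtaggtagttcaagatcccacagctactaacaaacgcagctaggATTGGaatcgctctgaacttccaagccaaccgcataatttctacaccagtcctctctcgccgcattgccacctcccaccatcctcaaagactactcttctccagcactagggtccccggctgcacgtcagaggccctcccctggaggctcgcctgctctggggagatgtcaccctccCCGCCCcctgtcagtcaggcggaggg
Aplp2, chr9:31211849-31212098, minus strand: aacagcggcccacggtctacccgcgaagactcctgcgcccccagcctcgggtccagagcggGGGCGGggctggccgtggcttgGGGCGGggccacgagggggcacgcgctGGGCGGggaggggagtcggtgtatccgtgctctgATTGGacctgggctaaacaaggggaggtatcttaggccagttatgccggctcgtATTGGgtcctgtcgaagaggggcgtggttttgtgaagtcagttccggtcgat
App, chr16:85173708-85173957, minus strand: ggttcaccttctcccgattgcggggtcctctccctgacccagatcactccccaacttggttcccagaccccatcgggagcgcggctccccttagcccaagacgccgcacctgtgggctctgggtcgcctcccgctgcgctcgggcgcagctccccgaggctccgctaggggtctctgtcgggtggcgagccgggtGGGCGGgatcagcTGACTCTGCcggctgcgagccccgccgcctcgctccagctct

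The Prnp window held an AP-1 match at -102 to -96 and an antioxidant core on the reverse strand at -172 to -164. It also held GC boxes at -146 to -141 and -35 to -30 and CCAAT boxes at -222 to -218 and -53 to -49. Sncb had a CCAAT box at -203 to -199 and a GC box at -26 to -21. Aplp2 had 3 GC boxes, the first at -189 to -184, and 2 CCAAT boxes. App had a GC box at -55 to -50 and an antioxidant core at -42 to -34. Of all 32851 RefSeq windows of this length, an AP-1 match was in 4.46%, an antioxidant core in 10.2%, a GC box in 32.7% and a CCAAT box in 33.8%. Heat shock element letters, found in 6.69% of all windows, were in none of these 4, nor were the cAMP response element (1.55%), E-box (6.02%) or ATF4 element (3.45%). A match is a description of the letters, not a binding site. G and C made up 58.8% of the Prnp and Sncb windows, 66.4% of that of Aplp2 and 70.8% of that of App.

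**Figure D1:**
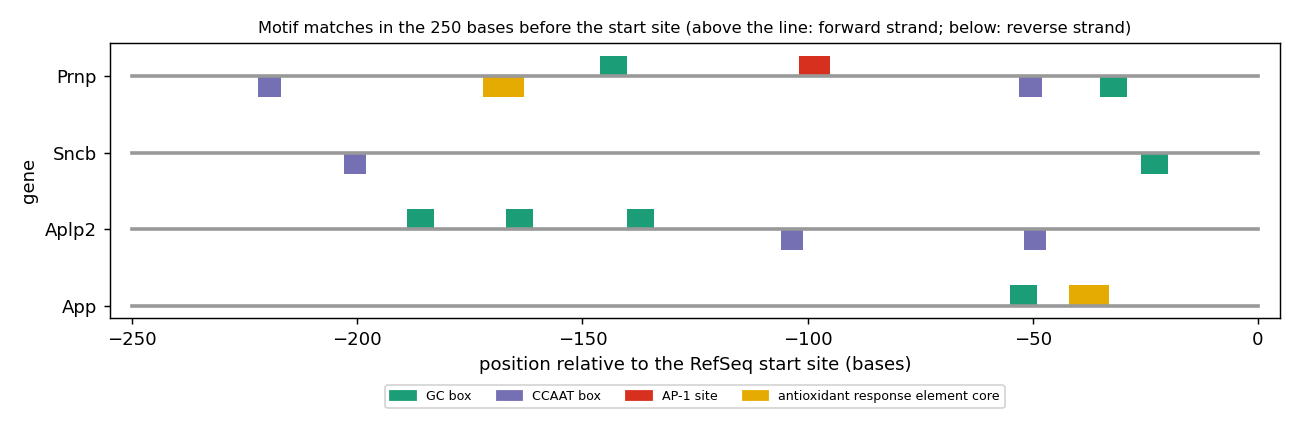
Positions of motif matches in the 250 bases before the RefSeq start site of Prnp, Sncb, Aplp2 and App (x axis, bases from the start site; coloured boxes, matches, above the line on the forward and below it on the reverse strand). Prnp alone among the 4 holds an AP-1 match, at -102 to -96, and Aplp2 holds 3 GC boxes.

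Values are signals, the brightness of a probe set on a linear scale, rescaled so that each array has the same trimmed mean (500). Changes are log2 differences of (signal + 32) from a limma fit to all 10 arrays that also estimates the difference between array designs, with their standard error (SE). A change was called at a Benjamini-Hochberg adjusted p under 0.05 over the 6984 probe sets left after the lowest 30% were removed. Median signals of the arrays lay between 159 and 235.1 before rescaling. Each group had 1 array on U74A (control replicate 1 at each time, lactacystin 24 h replicate 1 and lactacystin 48 h replicate 3) and the rest on U74Av2. Between the designs 37.1% of the tested probe sets differed, so changes within each design are given too. The difference of U74Av2 from U74A was 0.24 for App (adjusted p = 0.0129) and -0.31 for Aplp2 (adjusted p = 0.00676). Sncb (0.16), Psen2 (0.05) and Prnp (-0.02) were not called between designs.

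Under lactacystin for 24 h, Prnp rose 1.35-fold and Sncb dropped to 0.669 of its control level. App, Aplp2 and Psen2 did not pass the test. At 48 h no member was called. Within lactacystin, Aplp2 was 1.35-fold higher at 48 h than at 24 h. Aplp1 and Sncg (shared probe set) lay among the lowest signals and did not enter the test. At 24 h, 1 of the 5 tested members was called higher and 1 lower, where 14.8% of all probe sets were called (8.15% higher and 6.63% lower). The members' median change was -0.22 against -0.03 over all tested probe sets.

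**Figure D2:**
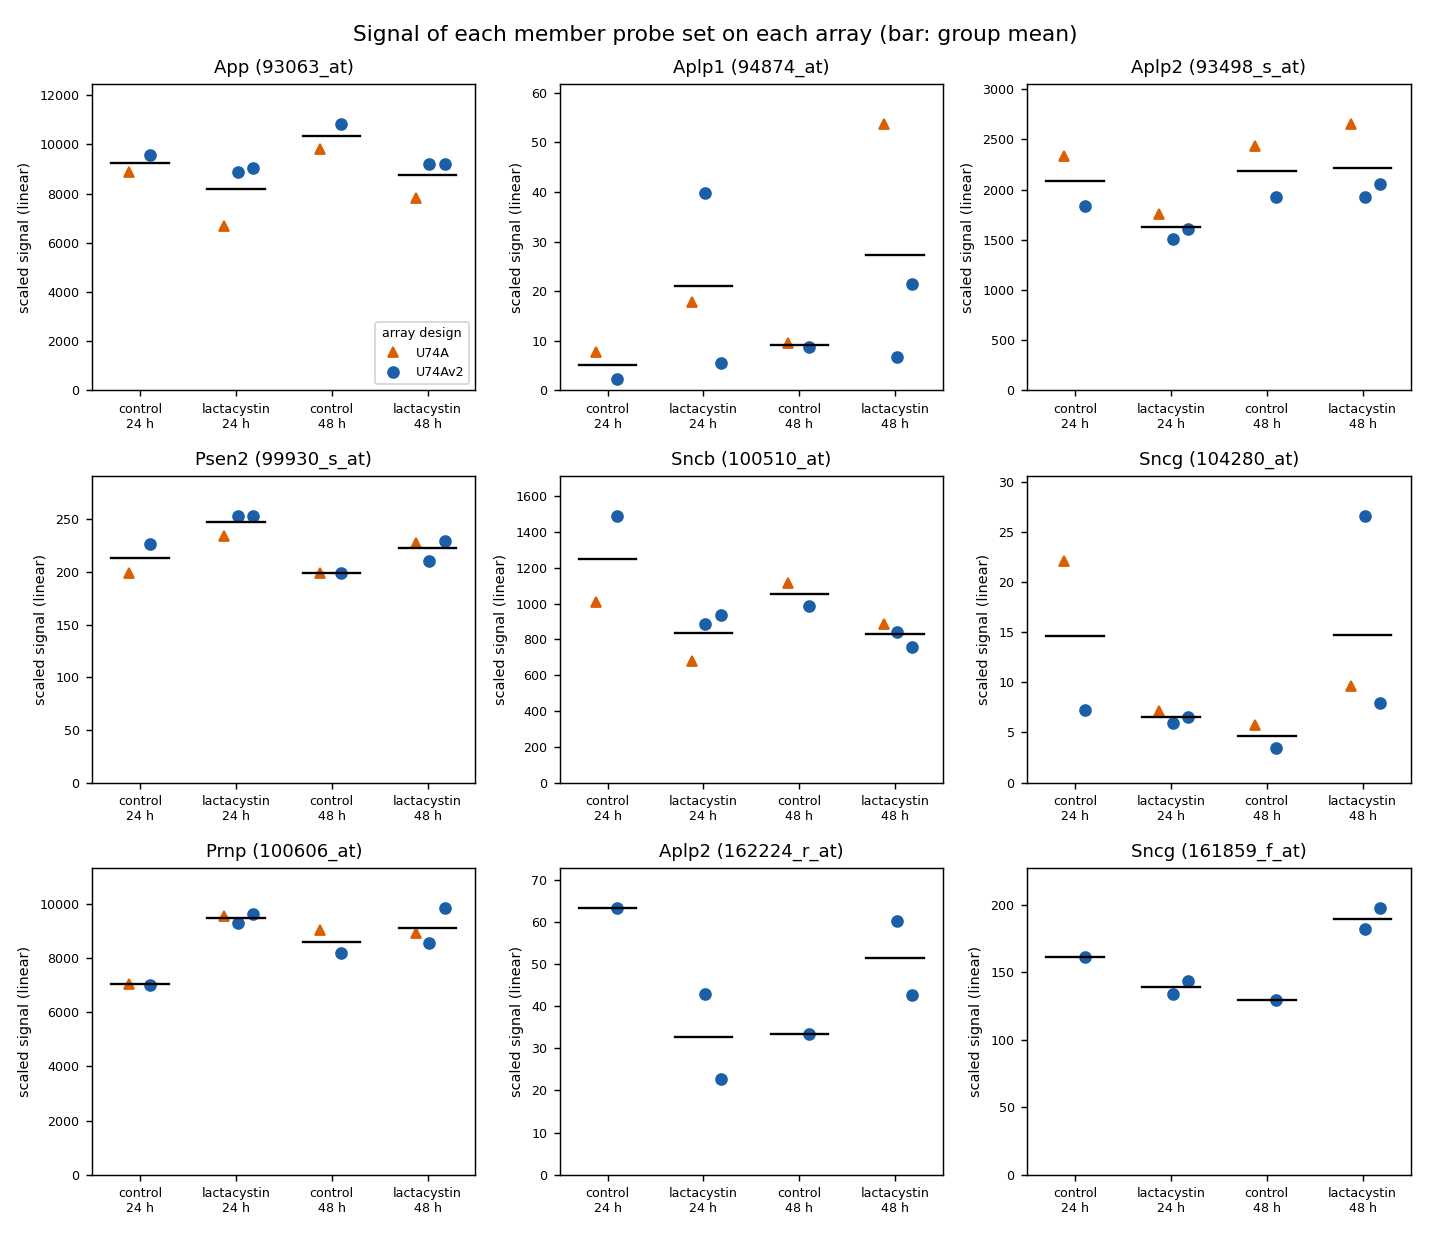
Rescaled signal (y axis, linear) of each member probe set on each array by group (x axis); orange triangles are U74A arrays, blue circles U74Av2 arrays, bars the group means. Both control arrays at 24 h lie at 7059.6 and 7024.6 for Prnp while the 3 lactacystin arrays lie between 9305.8 and 9621.8, and the Sncb arrays under lactacystin all lie at 933.8 or below.

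Of the precursor family, App (93063_at) read 8866.9 and 9580.5 in the 24 h controls and 6685.1, 8877 and 9021.3 after lactacystin for 24 h. The groups overlapped, and the lowest array was the U74A replicate. Its change was -0.22 ± 0.09 (SE), with a 95% interval of -0.42 to -0.02 and an adjusted p of 0.128, and it was -0.41 on U74A and -0.10 on U74Av2. At 48 h App read 9807.5 and 10842.8 in controls and 9205.9, 9214.1 and 7810.3 with lactacystin. All 3 lactacystin arrays were below both controls. The change was -0.28 ± 0.09 (interval -0.48 to -0.08, adjusted p = 0.0729), -0.33 on U74A and -0.23 on U74Av2. It passed the threshold when arrays were scaled to one median (-0.45, adjusted p = 0.0118) and when lactacystin 24 h replicate 1 was left out (-0.27, adjusted p = 0.0308). By group mean the order was lactacystin 24 h (8194.5 ± 1309.1, SD, n = 3), lactacystin 48 h (8743.4 ± 808.2, n = 3), control 24 h (9223.7 ± 504.6, n = 2) and control 48 h (10325.2 ± 732.1, n = 2). Neighbours in this order overlapped, apart from both control groups, whose difference of 0.16 ± 0.10 was not called (adjusted p = 0.905).

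Aplp2 (93498_s_at) encodes the ubiquitous relative of App. It read 2336.7 and 1832.4 in the 24 h controls and 1757.3, 1509.2 and 1604.7 after 24 h of lactacystin, all 3 below both controls. The change was -0.29 ± 0.10 (interval -0.52 to -0.07, adjusted p = 0.0792), -0.40 on U74A and -0.23 on U74Av2. At 48 h it read 2435.1 and 1925.2 in controls and 1924.4, 2058.2 and 2656.5 with lactacystin, and the groups overlapped. The change was 0.07 ± 0.10 (interval -0.16 to 0.29, adjusted p = 0.75). This value changed sign with median scaling (-0.10). The mean was lowest in lactacystin at 24 h (1623.7 ± 125.2, n = 3). Control 24 h (2084.5 ± 356.6, n = 2), control 48 h (2180.2 ± 360.6, n = 2) and lactacystin 48 h (2213 ± 389.9, n = 3) overlapped.

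From 24 h to 48 h of lactacystin Aplp2 rose by 0.43 ± 0.09 (interval 0.23 to 0.63, adjusted p = 0.0121). All 3 arrays at 48 h were above all 3 at 24 h, and the difference was 0.59 on U74A and 0.35 on U74Av2. It was the only member called, of the 5 tested, where 11.5% of all probe sets were called (6.19% higher and 5.31% lower). The members' median was 0.00, against 0.04 over all. Markers of other cells were called higher in this step too. Of 7 astrocyte and radial glia markers 4 rose (median 0.86), the largest being Aqp4 (2.33 ± 0.16) and Gfap (2.01 ± 0.13), and their summed signal was 11462 to 16381 at 24 h and 15506 to 18893 at 48 h. Both genes had been called lower than control at 24 h (Aqp4 -1.89 ± 0.18, Gfap -0.64 ± 0.15). Against control at 48 h Aqp4 stood at 0.49 ± 0.18, not called, and Gfap at 1.40 ± 0.15, called. Of 10 fibroblast and mural markers 3 rose (median 0.53, summed signal 2333 to 4541 and 4352 to 5870), and of 9 microglia markers 1 rose (median 0.43, summed signal 955 to 1634 and 1190 to 2105). Of 9 neuron markers 2 rose and 1 fell. Their part in the Aplp2 change was not tested. In controls the same step was 0.06 ± 0.11 (adjusted p = 0.961). The lactacystin effect at 48 h minus that at 24 h was 0.36 ± 0.14 and was not called (adjusted p = 0.245). The call was lost without lactacystin 24 h replicate 2 (0.43, adjusted p = 0.0569), without lactacystin 48 h replicate 3 (0.38, adjusted p = 0.0541) and on the U74Av2 arrays alone (0.35). It was also lost with no array design covariate and with a replicate block in place of array design.

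The second Aplp2 probe set, 162224_r_at on U74Av2 alone, was too dim to be tested. It read 63.3 and 33.5 in the 24 h and 48 h controls. After lactacystin it read 42.8 and 22.8 at 24 h and 60.3 and 42.6 at 48 h. The lactacystin arrays of both times overlapped, and no order is read from them.

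Aplp1 (94874_at) encodes the relative that is largely restricted to neurons. It read 7.7 and 2.4 in the 24 h controls, 9.5 and 8.8 in the 48 h controls, 17.9, 39.8 and 5.5 after 24 h of lactacystin and 6.7, 21.5 and 53.8 after 48 h. Its arithmetic mean was 17.3. By mean log2 signal it was left out by the filter, and the lowest tested mean log2 value corresponds to a signal of 51.4. Lactacystin arrays overlapped controls at both times. Fitted without the filter, the changes were 0.52 ± 0.31 at 24 h (adjusted p = 0.362) and 0.50 ± 0.31 at 48 h (adjusted p = 0.434). No difference in Aplp1 was detected at these low signals.

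Psen2 (99930_s_at), a catalytic subunit of gamma-secretase, read 199.5 and 226.7 in the 24 h controls and 234.5, 253.3 and 253.4 after 24 h of lactacystin. All 3 treated arrays were above both controls. The change of 0.18 ± 0.14 did not pass the test (interval -0.12 to 0.48, adjusted p = 0.422). At 48 h it read 198.9 and 199.4 in controls and 210.5, 229.5 and 227.6 with lactacystin. Again all treated arrays were higher, by 0.13 ± 0.14 (interval -0.17 to 0.43, adjusted p = 0.634). On U74A the changes were 0.20 at 24 h and 0.17 at 48 h, and on U74Av2 0.14 and 0.12. The 48 h value turned to -0.02 with median scaling and to -0.01 with quantile normalization. The order of means was control 48 h (199.1 ± 0.3, n = 2), control 24 h (213.1 ± 19.3, n = 2), lactacystin 48 h (222.6 ± 10.5, n = 3) and lactacystin 24 h (247.1 ± 10.9, n = 3). Of these neighbours, control 24 h and lactacystin 48 h overlapped. From 24 h to 48 h of lactacystin the change was -0.13 ± 0.12 (adjusted p = 0.533), with the groups apart.

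Sncb (100510_at) read 1010.6 and 1489.6 in the 24 h controls and 679.1, 887.1 and 933.8 after 24 h of lactacystin. All 3 treated arrays were below both controls, which lay far from each other. Sncb fell by 0.58 ± 0.17 on the log2 scale (interval -0.95 to -0.21, adjusted p = 0.0393), a change of -0.55 on U74A and -0.69 on U74Av2. Its change stood at the 5.7th percentile of all tested probe sets. The fitted size varied with the control kept. It was -0.31 without control replicate 2, where the call was lost, and -0.81 without control replicate 1. The call was also lost without lactacystin 24 h replicate 1 (-0.45, adjusted p = 0.152), replicate 2 (-0.60, adjusted p = 0.076) or replicate 3 (-0.64, adjusted p = 0.0565), without lactacystin 48 h replicate 1 (-0.58, adjusted p = 0.0523) and with no filter (-0.58, adjusted p = 0.068). The same held with no array design covariate (-0.55, adjusted p = 0.174), with a replicate block in place of array design (-0.62, adjusted p = 0.163) and by eBayes without trend (-0.58, adjusted p = 0.0709).

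At 48 h Sncb read 1115.9 and 985.4 in controls and 842.4, 759.5 and 883.6 with lactacystin, again all lower. The change was -0.36 ± 0.17 (interval -0.73 to 0.01, adjusted p = 0.214), -0.33 on U74A and -0.29 on U74Av2. It was -0.16 without control 48 h replicate 1 (adjusted p = 0.716) and -0.58 without control 48 h replicate 2 (adjusted p = 0.209). Among the alternatives, median scaling alone brought it past the threshold (-0.52, adjusted p = 0.0484). The difference between both times was 0.22 ± 0.24 (adjusted p = 0.688). The means under lactacystin, 833.4 ± 135.6 at 24 h and 828.5 ± 63.2 at 48 h (SD, n = 3 each), overlapped. The control means of 1250.1 ± 338.8 at 24 h and 1050.6 ± 92.3 at 48 h (n = 2 each) overlapped too. The difference between the times under lactacystin was 0.00 ± 0.15 and differed in sign between the designs (0.36 on U74A and -0.18 on U74Av2).

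Some neuron markers were also lower with lactacystin. The summed signal of the 9 tested was 23557 to 29914 in the 24 h controls and 16073 to 19668 with lactacystin, and 3 of 9 fell at 24 h (Syt1, Stmn2 and Dcx), where 6.63% of all probe sets were called lower. Stmn2, a growth-associated microtubule regulator of neurons, changed by -0.74 ± 0.11 (adjusted p = 0.00107). The other 6 were not called and ran from -0.74 (Map2) to 0.41 (Nefm), with Snap25 at -0.01 and Eno2 at 0.19. The list's median was -0.37 against -0.03 over all. At 48 h the sum was 28219 to 31310 in controls and 18716 to 27550 with lactacystin, and 2 of 9 fell, Stmn2 (-0.57 ± 0.11, adjusted p = 0.00678) and the synaptic fusion protein gene Snap25 (-0.55 ± 0.15, adjusted p = 0.0376), where 3.57% of all were called lower. The other 7 ran from -0.40 (Nefl and Eno2) to 0.43 (Nefm), and the median was -0.26 against 0.04. All 9 neuron markers on both designs passed the filter. In RNA of a whole culture, fewer neurons and less Sncb transcript per neuron cannot be told apart. The part of neuron number in the Sncb change was not tested.

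Sncg (104280_at), the synuclein best known from sensory and motor neurons, was near the bottom of the signal range. It read 22.1 and 7.2 in the 24 h controls, 7.1, 5.9 and 6.5 after 24 h of lactacystin, 5.7 and 3.5 in the 48 h controls and 26.6, 7.9 and 9.6 after 48 h of lactacystin. Treated arrays were below both controls at 24 h (at the closest 7.1 against 7.2) and above both at 48 h (7.9 against 5.7). Fitted without the filter, the changes were -0.25 ± 0.19 at 24 h (adjusted p = 0.489) and 0.34 ± 0.19 at 48 h (adjusted p = 0.374). The U74Av2-only set 161859_f_at was brighter and passed the filter of a fit on the 6 U74Av2 arrays. It read 161.2 in the 24 h control and 134 and 143.6 with lactacystin, then 129.8 in the 48 h control and 181.9 and 197.6 with lactacystin. The order was as on the shared set, lower than the control at 24 h and higher at 48 h, but the arrays are among the same ones. On these U74Av2 arrays the shared set changed by -0.04 at 24 h and 0.45 at 48 h. There was 1 control array at each time for 161859_f_at. Its changes were -0.18 ± 0.20 at 24 h (adjusted p = 0.617) and 0.45 ± 0.20 at 48 h (adjusted p = 0.237), and neither passed in a fit that had 2 residual degrees of freedom and called 7.42% of probe sets at 24 h and 5% at 48 h.

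Prnp (100606_at) read 7059.6 and 7024.6 in the 24 h controls and 9544, 9305.8 and 9621.8 after 24 h of lactacystin. Every treated array was above both controls, and replicates within each group lay close together. Prnp rose by 0.43 ± 0.09 (interval 0.24 to 0.63, adjusted p = 0.00838). The change was 0.43 on U74A and 0.43 on U74Av2, and stood at the 88.6th percentile of all tested probe sets. With 2 control arrays, leaving out control replicate 1 (0.42) or replicate 2 (0.44) ended the call, as did using the U74Av2 arrays alone (0.43). The call was also lost with no array design covariate (0.43, adjusted p = 0.0575) and with a replicate block in place of array design (0.43, adjusted p = 0.133).

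At 48 h Prnp read 9045.1 and 8177.8 in controls and 8555.6, 9851 and 8928.4 with lactacystin. These groups overlapped. The change was 0.08 ± 0.09 (interval -0.11 to 0.28, adjusted p = 0.634), and it was -0.02 on U74A, 0.17 on U74Av2 and -0.08 with median scaling. The effect at 48 h minus that at 24 h was -0.35 ± 0.13 and was not called (interval -0.63 to -0.07, adjusted p = 0.203). The control level moved between the times: the mean was 7042.1 ± 24.7 at 24 h and 8611.4 ± 613.3 at 48 h (SD, n = 2 each). This step was 0.29 ± 0.10 in the fit and was not called (adjusted p = 0.888). With lactacystin the means were 9490.5 ± 164.6 at 24 h and 9111.7 ± 666.9 at 48 h (n = 3 each) and the groups overlapped. In order of level, control 24 h was lowest and apart from the others, and control 48 h, lactacystin 48 h and lactacystin 24 h each overlapped the next.

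**Figure D3:**
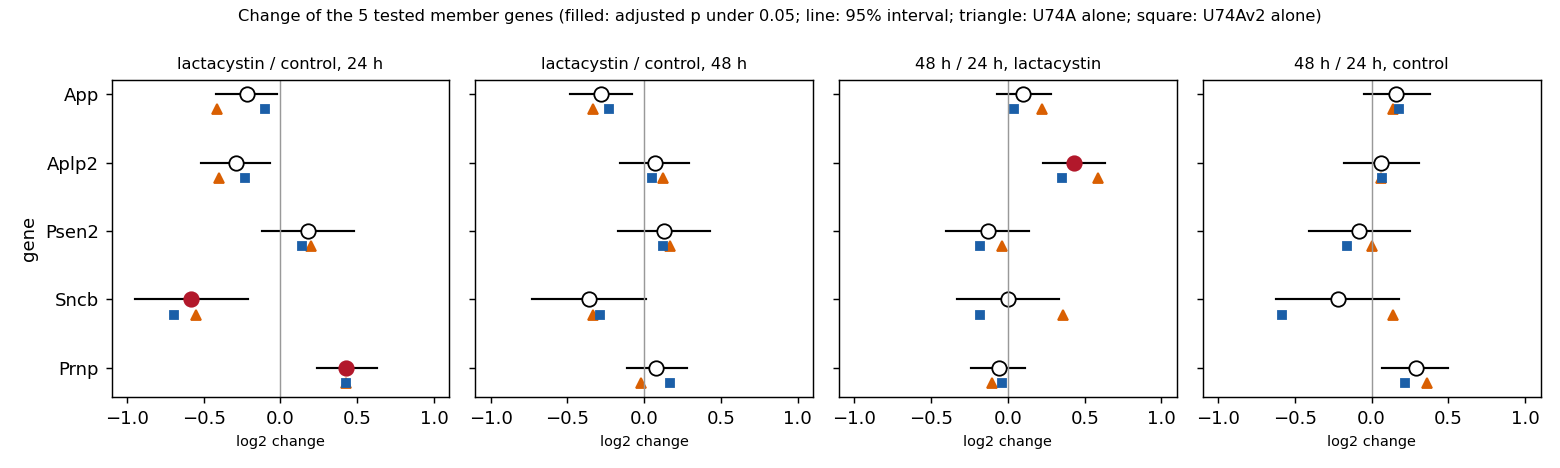
Log2 change (x axis) of the 5 tested members (y axis) in 4 comparisons, with the 95% interval as a line; filled circles have an adjusted p under 0.05, triangles are the change on U74A and squares on U74Av2. Prnp (0.43) and Sncb (-0.58) are filled at 24 h, none at 48 h, and Aplp2 (0.43) is filled for 48 h against 24 h in lactacystin.

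At 48 h, 0 of the 5 tested members were called by limma, where 10.3% of all probe sets were called (6.76% higher and 3.57% lower). At an unadjusted limma p under 0.05 there was 1 member (App) and 1733 of all 6984 probe sets. At 24 h there were 4 members (all tested but Psen2) and 2049 of all. In the difference between the times 0 of 5 members were called, where 1.29% of all probe sets were, and 2 members (Aplp2 and Prnp) had an unadjusted p under 0.05, as did 1131 of all. Between the control times 0 of the 6984 probe sets were called (0%), with 390 at an unadjusted p under 0.05, Prnp among them.

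Separation of the arrays was common. At 24 h the treated and control arrays did not overlap for 4 of the 5 tested members (Aplp2 and Sncb lower, Psen2 and Prnp higher), where this held for 36.1% of all tested probe sets (18.9% lower and 17.2% higher). At 48 h it held for 3 of 5 (App and Sncb lower, Psen2 higher), where the share of all was 26.5% (9.91% lower and 16.6% higher). Between the lactacystin times it held for 2 of 5 (Aplp2 higher, Psen2 lower) against 21.3% of all (11.8% and 9.52%), and between the control times for 3 of 5 (App and Prnp higher, Psen2 lower) against 19.4% (8.81% and 10.6%). The comparisons at 24 h and 48 h use different arrays, but both time comparisons share arrays with them.

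Over the 10 arrays, with the mean of each array design removed, the member pairs with the highest correlation were App and Sncb (r = 0.62), App and Aplp2 (r = 0.59) and Psen2 and Prnp (r = 0.53). The lowest were App and Psen2 (r = -0.79) and Sncb and Prnp (r = -0.74). These are descriptions, and the points share the treatment groups. Lactacystin arrays make up a larger share of U74Av2 than of U74A, so the removed means carry part of the treatment difference. Among all other tested genes, those most like App were Rtn3, Cadm1 and Hif1a, each at r = 0.97 through a probe set of the _f class. Those most like Aplp2 were Sfrp2 (0.96), Agrn (0.95) and Scrg1 (0.94). Psen2 was followed most closely by Gtf2h4 (0.95), Pla2g6 (0.95) and 9530068E07Rik (0.94), and Sncb by Prkce, Jph3 and Epn1 (0.97 each). For Prnp they were Nubp1 (0.94), Commd6 (0.92) and Frmd6 (0.92).

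Among other genes of these pathways, the list of those that clear or degrade amyloid-beta had 12 tested. The counts of these lists stand beside 8.15% of all probe sets called higher and 6.63% lower at 24 h, and 6.76% higher and 3.57% lower at 48 h. Of the 12, 4 rose and 2 fell at 24 h and 4 rose at 48 h, with a median of 0.04 and 0.28 against -0.03 and 0.04 over all probe sets. Clu, the extracellular chaperone clusterin, rose by 0.78 ± 0.12 at 24 h (adjusted p = 0.00148) and 1.00 ± 0.12 at 48 h (adjusted p = 0.00047). Ctsd, a lysosomal protease, rose by 1.05 ± 0.17 (adjusted p = 0.00174) and 1.08 ± 0.17 (adjusted p = 0.00233). Plat, tissue plasminogen activator, rose by 1.31 ± 0.15 (adjusted p = 0.000171) and 1.16 ± 0.15 (adjusted p = 0.000666). Ide, a protease that degrades insulin and amyloid-beta, rose by 1.05 ± 0.20 at 24 h (adjusted p = 0.00543) and stood at -0.08 at 48 h. A2m, a protease trap, stood at -0.10 at 24 h and rose by 1.51 ± 0.19 at 48 h (adjusted p = 0.00073). At 24 h the lipid carrier gene Apoe fell by 0.95 ± 0.26 (adjusted p = 0.0301) and the protease inhibitor gene Cst3 by 0.50 ± 0.14 (adjusted p = 0.0326). At 48 h they stood at 0.61 and 0.21, not called. Ctsb, named after its values were seen, was not called through its brightest probe set (0.35 at 48 h), while 92256_at read 0.80 (adjusted p = 0.0153) and 95608_at 0.69 (adjusted p = 0.035).

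The secretase list held 4 tested genes besides Psen2. None was called at 24 h, and Adam9, a metalloprotease with alpha-secretase activity, rose by 0.75 ± 0.13 at 48 h (adjusted p = 0.00404). Aph1a, a gamma-secretase subunit, stood at 0.34 ± 0.18 (adjusted p = 0.27).

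Of 12 genes for App adaptors and trafficking, 2 rose and 2 fell at 24 h, and 2 rose and 3 fell at 48 h (medians -0.16 and -0.26). The App-binding adaptor gene Apba2 fell by 0.54 ± 0.11 at 24 h (adjusted p = 0.00836) and by 0.50 ± 0.11 at 48 h (adjusted p = 0.0172), and its relative Apba3 rose by 0.78 ± 0.14 at 24 h (adjusted p = 0.0038) and stood at 0.41 at 48 h (adjusted p = 0.0941). Apbb1, another App-binding adaptor gene, named after its values were seen, stood at -0.61 ± 0.20 (adjusted p = 0.0619) and -0.41 ± 0.20 (adjusted p = 0.235). Shc1, a signalling adaptor, rose by 0.90 ± 0.19 (adjusted p = 0.00928) and 0.69 ± 0.19 (adjusted p = 0.0406). Mapk8ip1, a JNK scaffold, fell by 0.86 ± 0.18 at 24 h (adjusted p = 0.00794) and stood at -0.58 ± 0.18 at 48 h (adjusted p = 0.0578). At 48 h the BRICHOS-domain gene Itm2c rose by 0.51 ± 0.11 (adjusted p = 0.0175), and Rtn3, a reticulon, fell by 0.36 ± 0.10 (adjusted p = 0.0377, -0.23 and not called on its other probe set). Klc1, a kinesin light chain, fell by 0.51 ± 0.11 (adjusted p = 0.012), but its other probe sets stood at 0.21 and 0.31, so its direction is uncertain.

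Of 8 synuclein partner and Parkinson disease genes, Ywhah, a 14-3-3 protein, fell at 24 h (-0.47 ± 0.10, adjusted p = 0.00869) and 48 h (-0.44 ± 0.10, adjusted p = 0.0174), and no other was called. The next largest value at 48 h was that of Uchl1, a ubiquitin hydrolase (-0.22 ± 0.10, adjusted p = 0.186). Of 6 prion protein partners, the adhesion molecule gene Ncam1 fell at both times (-0.45 ± 0.10, adjusted p = 0.00924, and -0.49 ± 0.10, adjusted p = 0.00897). Hspd1, the mitochondrial chaperonin, rose at 24 h (0.55 ± 0.14, adjusted p = 0.0213), and Grb2, an adaptor, stood at -0.31 ± 0.24 at 48 h (adjusted p = 0.473). Of 10 genes of tau and its kinases and phosphatases, Ppp2r2b, a phosphatase subunit, fell at 24 h (-0.42 ± 0.12, adjusted p = 0.0368). At 48 h Ppp2r2b stood at -0.37 ± 0.12 (adjusted p = 0.0732). Mapt, which encodes tau, fell at 48 h (-0.45 ± 0.10, adjusted p = 0.0157) and stood at -0.19 ± 0.10 at 24 h (adjusted p = 0.229). Its 2 other probe sets differed from this in being called lower at 24 h already (-0.32, adjusted p = 0.018, and -0.72, adjusted p = 0.00229). They were also called lower at 48 h (-0.48, adjusted p = 0.00306, and -0.62, adjusted p = 0.00787). Cdk5, a tau kinase, stood at -0.40 ± 0.12 at 48 h (adjusted p = 0.0506). The medians at 48 h were -0.12, -0.11 and -0.23 in these 3 lists.

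**Figure D4:**
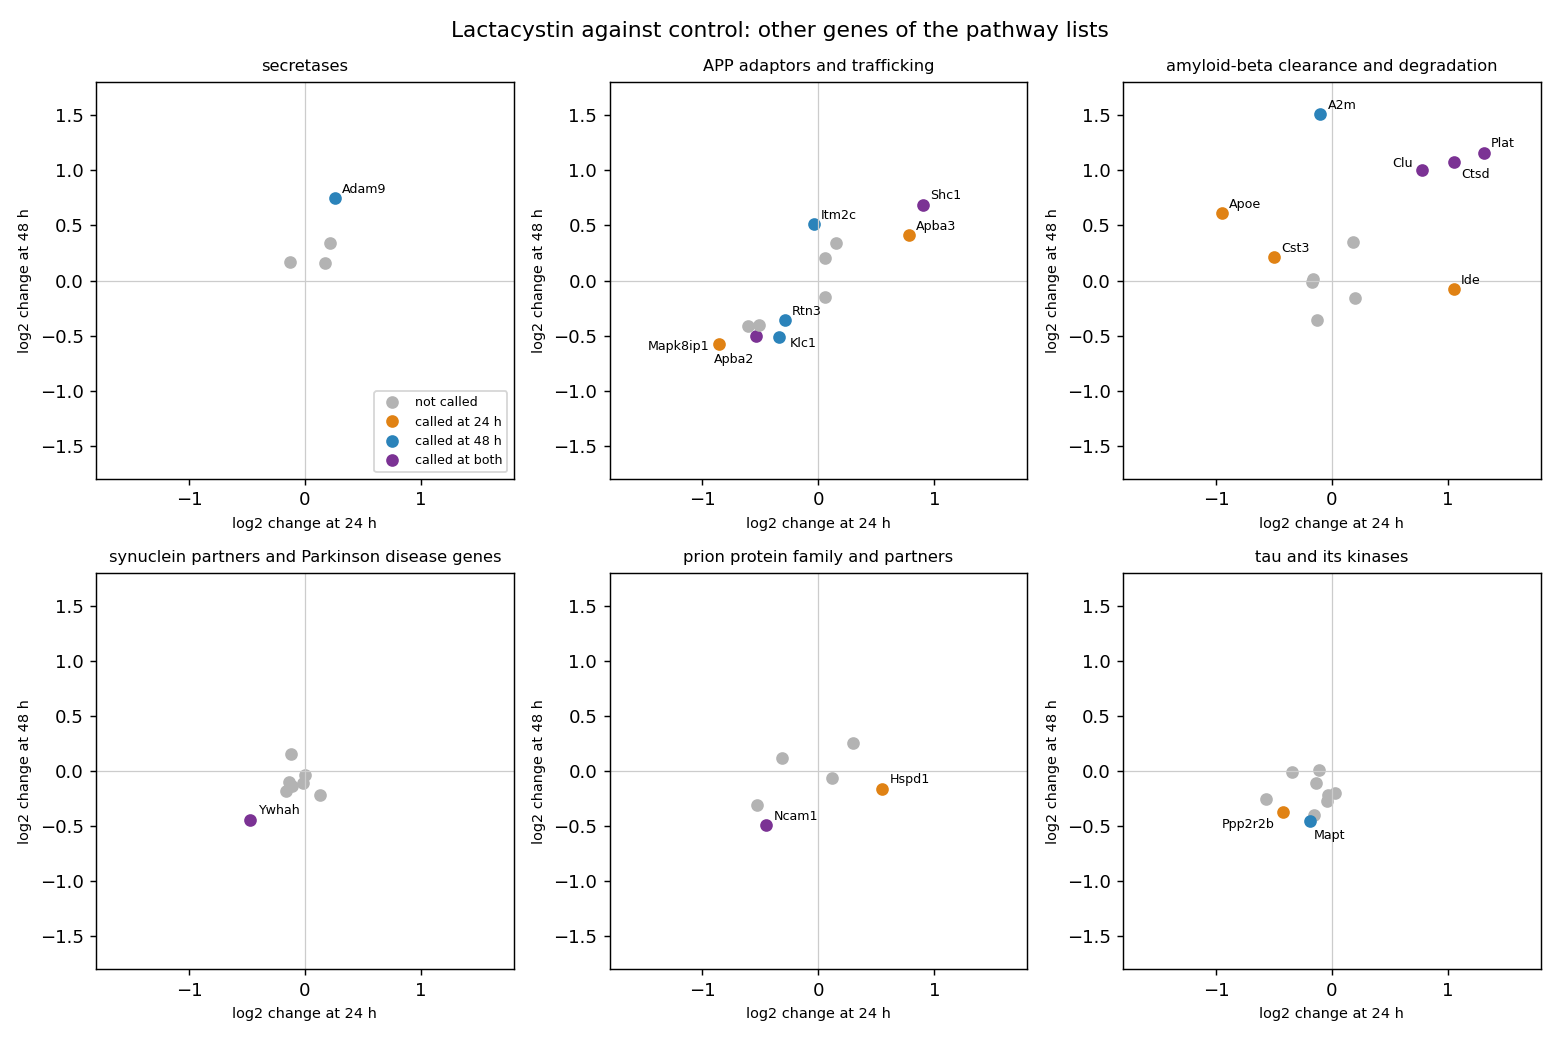
Log2 change with lactacystin at 24 h (x axis) against that at 48 h (y axis) for the tested genes of 6 pathway lists, each point a gene, coloured by the times at which it was called. Clu, Ctsd and Plat lie at 0.78 or above at both times, and Ywhah, Ncam1 and Apba2 lie at -0.44 or below at both.

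Markers of other cell types are given beside the same shares of all probe sets. At 48 h the summed astrocyte and radial glia signal (7 genes) was 12314 to 18446 in controls and 15506 to 18893 with lactacystin, and 3 genes rose, the largest values being those of Gfap (1.40 ± 0.15) and Gja1 (0.90 ± 0.16). At 24 h the range was 12029 to 18014 in controls and 11462 to 16381 with lactacystin, with 1 gene called higher (Gja1) and 2 lower (Gfap and Aqp4). Microglia and macrophage genes (9) summed to 712 to 1460 and 1190 to 2105 at 48 h, where 3 rose, with Cd68 (1.47 ± 0.27) and Tyrobp (1.04 ± 0.27) at the top. The rest were not called and ran from -0.03 (Cx3cr1) to 0.64 (Laptm5), with C1qa at 0.14 and Csf1r at 0.19. The list's median was 0.62. At 24 h the microglia genes summed to 844 to 1141 and 955 to 1634 and 1 rose (Cd68). The rest ran from -0.43 (C1qa) to 0.40 (Laptm5), not called, and the median was 0.01. Fibroblast and mural genes (10) summed to 2944 to 3205 and 4352 to 5870 at 48 h, where 2 contractile genes, Tagln (2.12 ± 0.27) and Acta2 (2.10 ± 0.33), rose and the other 8 ran from -0.25 (Dcn) to 0.54 (Rgs5), not called. At 24 h they summed to 2416 to 3565 and 2333 to 4541. Tagln rose, and 7 of the 10 had values below 0 that were not called, down to -0.58 (Pdgfra), with a list median of -0.37. Of the 13 oligodendrocyte, endothelial and erythroid markers on both designs, 4 passed the filter and none was called at either time, Kdr (0.64) and Pecam1 (0.22) standing at 48 h beside Mbp (-0.12) and Hba-a1 (-0.41). App, Aplp2 and Prnp are also made by glia and fibroblasts, and the part of these cells in the members' values was not tested.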

How the data were processed

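Total RNA of 10 samples was hybridised to Affymetrix U74A (4) or U74Av2 (6) arrays, 1 array per sample. The deposited values are linear intensities, summarised per probe set by the authors. They were made with MAS5, per the submitters' processing notes; which version is not given in the sources used here. All deposited sample columns were used, and 0 were left out. Control probe sets (66 shared) were dropped, and each array was rescaled to a trimmed mean (2% from each end) of 500 over the rest (factors 0.91 to 0.92). Detection calls were not used here. Symbols came from the platform annotation, updated by Entrez identifier: 8724 shared probe sets had 1 symbol, while 346 had several and 907 lacked any.

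The pseudocount of 32 understates changes of dim probe sets. The lowest 2993 probe sets (30%) by mean log2 signal were left out, and 6984 were tested. Two-sided moderated tests (limma 3.58.1 in R 4.3.3, lmFit and eBayes with trend) used 4 groups and array design, with 5 residual degrees of freedom. The scripts were tested on simulated data. Precision is limited by how few arrays each group has. The sample labels name no culture batch, so whether batches followed array design could not be checked. If they did, their effects could not be separated.

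Members and lists were chosen with earlier results of these data known. The brightest tested probe set stood for its gene. Named were every member probe set, list genes called at 24 h or 48 h plus the 2 with the largest change at 48 h, for marker lists those 2, and the 3 genes most correlated with each member. Alternatives covered pseudocount, scaling, filter, covariates, variance model, array design, replicate block and leaving out arrays.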

Additional observations from a re-analysis of the deposited data

Results flagged for a closer look

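Sncg (104280_at) was lower than both controls on all 3 lactacystin arrays at 24 h and higher on all 3 at 48 h. The nearest arrays were 7.1 with lactacystin and 7.2 in a control at 24 h, and 7.9 and 5.7 at 48 h. Among the tested probe sets, which do not include it, 18.9% lay wholly lower at 24 h and 16.6% wholly higher at 48 h. Sncg was flagged by a rule on this same reversal. Fitted without the filter on dim probe sets, its lactacystin effect at 48 h minus that at 24 h was 0.59 ± 0.26 (limma adjusted p = 0.386); the difference was not tested in the fit that left out dim probe sets. The U74Av2-only Sncg set 161859_f_at gave 0.63 ± 0.28 (adjusted p = 0.314) in a fit of the 6 U74Av2 arrays, which are among the same arrays.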

How the results depend on the processing

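Of 595 recomputed values for 25 member results, 555 kept their direction and their side of the threshold, 19 lost the call, 3 gained it and 18 changed sign. At 24 h Prnp ranged from 0.42 to 0.45, Sncb from -0.81 to -0.31 and, for 48 h against 24 h in lactacystin, Aplp2 from 0.34 to 0.48, all with 1 sign throughout. All sign changes were of uncalled values, the largest being those of Sncb for the difference between the times (0.22) and between control times (-0.22). At 48 h Aplp2 was -0.10 with median scaling and -0.05 with the replicate block without array design, Psen2 -0.02 with median scaling and -0.01 with quantile normalization, and Prnp -0.08 with median scaling. For the difference between the times, App was 0.02 with quantile normalization, 0.02 without control 24 h replicate 2 and 0.00 without control 48 h replicate 1, Psen2 ran from -0.12 to 0.02 and Sncb from -0.03 to 0.47 with 1 array left out. Sncb between lactacystin times was 0.00 on deposited values, -0.09 with median scaling, 0.00 with quantile normalization, -0.18 on U74Av2 alone, and -0.14 to 0.09 with 1 array left out (-0.11 without lactacystin 24 h replicate 1). Between control times Psen2 was 0.00 with median scaling and Sncb ran from -0.47 to 0.03 with 1 array left out. The cause was not tested.

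Counts of called probe sets were 1032 at 24 h, 721 at 48 h, 90 for the difference, 803 between lactacystin times and 0 between control times. With no array design covariate they were 250, 113, 2 and 133 for the first 4. On U74Av2 alone they were 558, 385 and 12 for the first 3. With the replicate block without array design they were 171, 81, 0 and 57, and with the replicate block and array design together 779, 541, 60 and 562. With group and array design removed, 2 of 13 same-numbered pairs correlated over 0.1 (range -0.41 to 0.27). In this check 1 of 10 arrays was most like one of its own number. Whether same-numbered arrays pair cannot be decided this way. Replicate 1 was on U74A in every group but lactacystin 48 h, so removing array design also removes what those arrays share. The 2 arrays of a control group deviate oppositely once their mean is removed. The count at 48 h was 439 with its own groups alone. The difference gave 167 calls with median scaling, 48 with no filter and 37 by eBayes without trend. Leaving out 1 array gave 308 to 1100, 213 to 827, 5 to 187, 323 to 828 and 0 to 2 calls. Members called at 24 h numbered 2, against 1 with no filter, on U74Av2 alone and without trend, 0 with no array design covariate and with the block without array design, and 0 to 2 without 1 array. At 48 h they numbered 0, 2 with median scaling (App and Sncb) and 0 to 1 without 1 array. Between lactacystin times they numbered 1, against 0 with no covariate, on U74Av2 alone and with the block without array design, and 0 to 1 without 1 array. Median scaling moved the median of all probe sets by -0.15 at 48 h and -0.17 in the difference, and turned 472 higher and 249 lower at 48 h into 286 and 639, and 432 and 371 between lactacystin times into 224 and 527. The lone control array left by an omission is assumed to vary like the other groups. Dim signals limit Aplp1 and Sncg.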
